A study of Mus musculus with 8 samples.

Results

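Heat shock proteins and their co-chaperones were followed in testis RNA from 4 groups of house mice, as every probe set whose single gene symbol in the array annotation begins with Hspa, Hspb, Hspd, Hspe, Hsph, Hsp90 or Dnaj, or with Cct and a digit. This rule found 77 of the 12422 probe sets on the array, for 55 of the 8251 genes with such a symbol. Each probe set pools several short probes to one transcript. Total RNA from testis had been hybridised to Affymetrix arrays, and the groups carry the names castaneus, domesticus, musculus and ssp from the word after Mus musculus in each title. The meaning of ssp is not in the labels, nor is a strain, age, treatment or number of animals for any group. Each group has 2 arrays, which the labels call technical replicates, so every p-value measures the spread between replicate arrays and not between animals.

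Chaperones hold newly made or damaged proteins so that they can fold. Hsp70 proteins (Hspa genes) bind and release short unfolded stretches with each ATP they split, J-domain proteins (Dnaj genes) bring substrates to them and speed that ATP use, and Hsp110 proteins recharge them. Hsp90 finishes kinases and receptors, Hsp60 with Hsp10 folds proteins inside mitochondria, small heat shock proteins hold clients without ATP, and the ring-shaped chaperonin of the Cct genes folds actin and tubulin. Male germ cells make their own versions of several of these. Hspa2 is the Hsp70 of meiotic spermatocytes and later germ cells and is needed for male meiosis, Hspa1l appears in spermatids, and Dnajb3, Dnajb13 and Cct6b are also testis forms.

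Of the 71 chaperone probe sets bright enough to be tested, 1 differed among the 4 groups: Dnajb2, which was higher in domesticus. That is 1.41% of the chaperone probe sets, beside 1.76% of all 8874 tested (156 probe sets), so the share called lay near the background. Testing required a value at or above the array's 40th percentile on 2 or more of the 8 arrays. A call required a p under 0.05 in limma's moderated F test, after Benjamini-Hochberg adjustment over everything tested, together with a span of 1 or more in log2 (a factor of 2) from the lowest to the highest of the 4 group means. At an unadjusted p under 0.05 there were 13 chaperone probe sets, or 18.3%, beside 15.9% of all tested. The 6 that were not tested belong to Dnajb5, Dnajc11, Hspb1, Dnajc1, Dnajc3 and Hspb8, of which the last 3 have another probe set that was tested. Hspb1, a heat-inducible small heat shock protein, read between 10.3 and 108.9 on the 8 arrays. Values under a floor of 18.7 were raised to it.

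Dnajb2 encodes a J-domain co-chaperone of Hsp70 that is best known from neurons. Its probe set 98451_at read 4516.5 and 3608 on the domesticus arrays, 816.7 and 978.5 on castaneus, 762.3 and 770.8 on musculus, and 892.1 and 952.9 on ssp. Both domesticus arrays lay above the other 6, and the other 3 groups lay close together. The geometric mean in domesticus was 4.52-fold that of castaneus (log2 difference 2.17, SE 0.25, adjusted p = 0.0331 by limma), 5.27-fold that of musculus (2.40, adjusted p = 0.0202) and 4.38-fold that of ssp (2.13, adjusted p = 0.0295). Castaneus, musculus and ssp differed from each other by at most 1.20-fold, with no adjusted p under 0.74 by limma. The order of means was domesticus 4037 (SD 0.23 log2, n = 2), ssp 922, castaneus 893.9 and musculus 766.5, and neighbours below domesticus did not differ beyond the test. Leaving out any 1 of the 8 arrays kept the log2 differences between domesticus and the others at 1.97 to 2.56, but the F test then gave adjusted p = 0.0545 without ssp replicate 1, 0.0594 without ssp replicate 2, 0.0808 and 0.0837 without castaneus replicates 1 and 2, 0.0947 and 0.102 without musculus replicates 1 and 2, and 0.129 and 0.115 without domesticus replicates 1 and 2. Without the filter on dim probe sets its F test gave an adjusted p of 0.0572 by limma. Dnajb2 has no second probe set on the array. Of 14 chaperone genes with several tested probe sets, 8 shared neither the highest nor the lowest group among them. Whether the probes match the transcripts of all groups equally was not tested, so a difference in signal need not be one in RNA amount. Of 9 tested Sertoli cell markers, 7 were above the mean of the other groups in domesticus (median log2 difference 0.40) and 6 in castaneus (0.25). Their summed intensity, led by Clu and Ctsl, was 14140 and 14170 in domesticus and 13620 and 13680 in castaneus. On the musculus and ssp arrays the sum was 10420 to 12970. The part of these markers in the Dnajb2 difference was not tested.

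**Figure D1:**
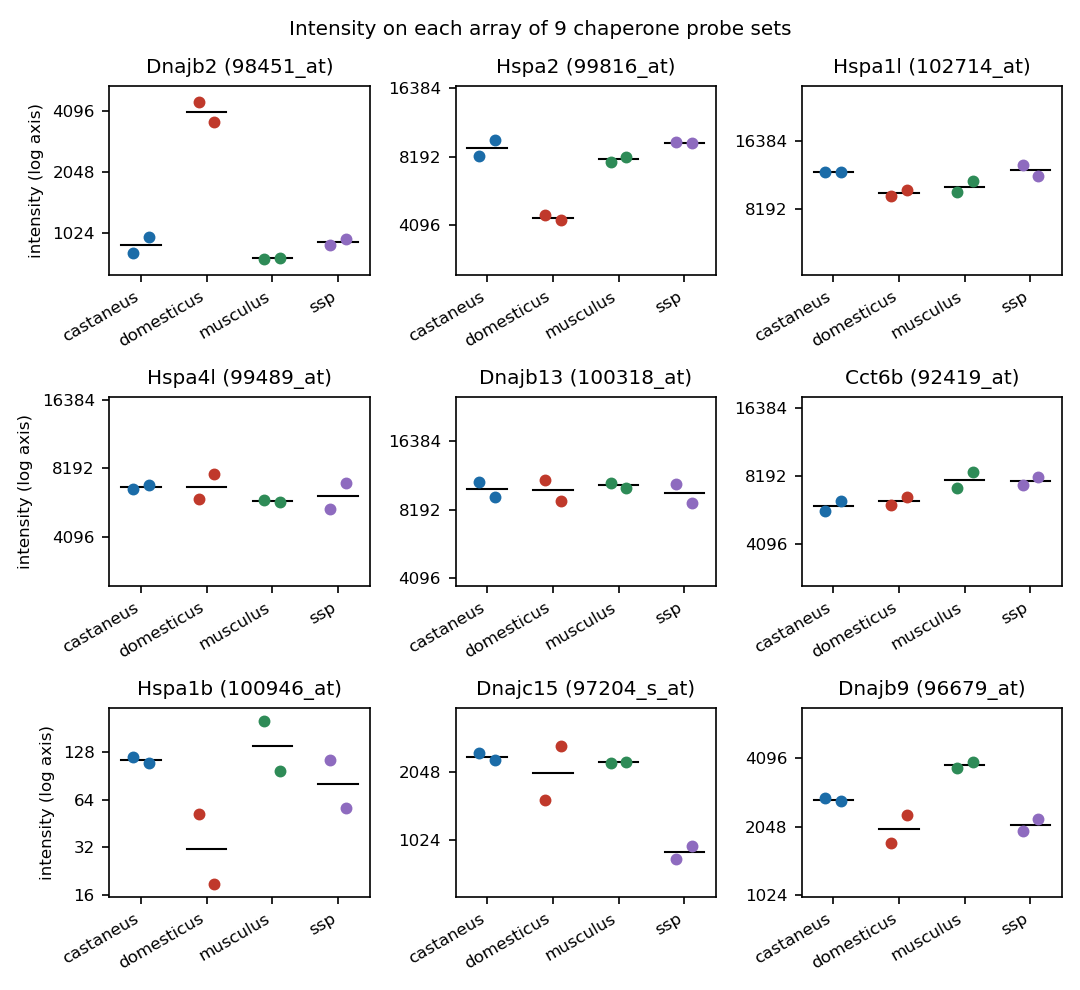
Intensity on a log axis of 9 chaperone probe sets in the 4 groups; each point is 1 array and each bar the geometric mean of the 2 arrays of a group, with values under the floor of 18.7 drawn at it. Dnajb2 reads 3608 and 4516.5 in domesticus and 762.3 to 978.5 elsewhere, Hspa2 reads 4304.6 and 4543.1 in domesticus and 7772.4 to 9686.9 elsewhere, and Dnajb13 stays between 8754.8 and 11070.6 on all 8 arrays.

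Heat shock factor binds repeats of GAA and its reverse complement TTC, and the start regions of the chaperone genes were searched for the pair GAANNTTC and for a 3-unit run, which is that pair followed by NNGAA or, on the other strand, preceded by TTCNN (N is any base). Both strands were searched. GAANNTTC is its own reverse complement, and every 3-unit run contains such a pair. RefSeq windows from 250 bases before to 50 bases after the transcript start, on build GRCm38.p6, were at hand for 47 of the 55 genes, 61 windows in all. The pair was found in 12 of the 61 windows (19.7%) beside 7.86% of all 32851 windows of this length, and the 3-unit run in 6 windows (9.84%) beside 0.603%. Windows can overlap and so count a site again: the 6 with the run lie on 3 separate stretches, of Dnajb6, Hsph1 and the shared region of Hspd1 and Hspe1. With overlapping windows merged, the pair was on 9 of 53 chaperone stretches (17.0%) beside 8.22% of all 29061, and the run on 3 of 53 (5.66%) beside 0.595%. The genes with the pair were Cct2, Dnaja1, Dnajb6, Hspa1a, Hspa1b, Hspb1, Hspb8, Hspd1, Hspe1 and Hsph1, and those with the 3-unit run were Dnajb6, Hspd1, Hspe1 and Hsph1. Dnajb2 and Hspa2, the members with the clearest domesticus values, had neither in their windows. Their sequences are set here beside that of Hspa1a, a stress-inducible Hsp70 with 1 pair starting at position -104 from its start, and that of Hspe1, whose window shares 285 of its 300 bases with a window of Hspd1 on the opposite strand. The windows are those of Dnajb2 (chr1:75236173-75236472, plus strand, the first of its 2 starts), Hspa2 (chr12:76404120-76404419, plus strand), Hspa1a (chr17:34972107-34972406, minus strand) and Hspe1 (chr1:55087898-55088197, plus strand). Capitals mark matches to GAANNTTC or to the 3-unit run:
Dnajb2: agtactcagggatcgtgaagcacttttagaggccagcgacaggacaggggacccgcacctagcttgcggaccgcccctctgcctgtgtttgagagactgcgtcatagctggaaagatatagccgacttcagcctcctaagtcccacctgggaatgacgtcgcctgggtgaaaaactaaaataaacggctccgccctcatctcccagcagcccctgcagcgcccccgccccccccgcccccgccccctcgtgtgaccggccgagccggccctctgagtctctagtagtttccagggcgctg
Hspa2: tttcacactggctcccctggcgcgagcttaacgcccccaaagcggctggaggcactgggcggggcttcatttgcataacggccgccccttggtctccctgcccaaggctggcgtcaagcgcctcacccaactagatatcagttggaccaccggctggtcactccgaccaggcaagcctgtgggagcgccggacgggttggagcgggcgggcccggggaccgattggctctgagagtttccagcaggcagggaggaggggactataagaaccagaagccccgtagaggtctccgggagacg
Hspa1a: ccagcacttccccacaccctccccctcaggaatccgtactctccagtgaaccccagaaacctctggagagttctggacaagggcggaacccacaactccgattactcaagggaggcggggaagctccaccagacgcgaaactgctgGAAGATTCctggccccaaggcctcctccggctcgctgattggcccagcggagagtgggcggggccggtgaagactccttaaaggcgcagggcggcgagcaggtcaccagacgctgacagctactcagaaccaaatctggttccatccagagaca
Hspe1: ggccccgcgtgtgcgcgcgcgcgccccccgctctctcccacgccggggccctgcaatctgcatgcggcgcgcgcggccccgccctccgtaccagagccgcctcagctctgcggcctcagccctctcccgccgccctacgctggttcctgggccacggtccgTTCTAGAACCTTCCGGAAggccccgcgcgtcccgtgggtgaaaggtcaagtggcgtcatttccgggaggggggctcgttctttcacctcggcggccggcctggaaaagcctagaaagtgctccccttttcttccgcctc

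The window of Hspa1b matched that of Hspa1a at 296 of 300 positions, with the pair at the same position -104. Over the 9 tested genes with a GAANNTTC match, 1 probe set a gene, the median span of group means was 0.67 on the log2 scale at a median intensity of 638, and over the 36 tested genes with a window but no match it was 0.39 at a median intensity of 1936. These medians are a description without a test, and dimmer probe sets had wider spans on these arrays, as given with the intensity classes. A match names letters in a window and not a bound factor.

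Hspa2, the spermatocyte Hsp70, read lowest in domesticus. Its single probe set read 4543.1 and 4304.6 in domesticus, 8269.4 and 9686.9 in castaneus, 7772.4 and 8202.4 in musculus, and 9497.2 and 9381.7 in ssp. Both domesticus arrays lay below the other 6, at about the same value, and the other 3 groups differed from each other by at most 1.18-fold. Whether the Hspa2 probes match the transcript of every group equally was not tested. The mean in domesticus was 2.02-fold below castaneus, 1.81-fold below musculus and 2.13-fold below ssp, with log2 standard errors of 0.23. None of these passed limma's test, with adjusted p = 0.151, 0.205 and 0.129, and the F test gave an adjusted p of 0.156 (unadjusted p = 0.00920). It passed against ssp with the filter set at the 60th percentile and against castaneus and ssp with a trended and robust variance model, as given in the closing section.

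Other spermatocyte transcripts were read beside Hspa2. Of 5 tested markers (Sycp1, Pgk2, Ldhc, Ccna1 and Dmc1), 1 was above the mean of the other groups in domesticus, the median log2 difference was -0.14, and none was called by limma, nor had any an unadjusted p under 0.05. Their summed intensity was led by Ldhc, the germ cell lactate dehydrogenase. The sum was 39490 and 40590 on the domesticus arrays, 38410 and 40410 on musculus, and 43900 to 52820 on castaneus and ssp. In musculus 2 of the 5 were above the mean of the other groups (median -0.26). Of 11 tested spermatid markers, 2 were above in domesticus (median -0.15) and 1 in musculus (-0.23). The part of spermatocyte and spermatid number in the Hspa2 values was not tested. In tissue RNA such as this, fewer cells of a type and less RNA per cell cannot be told apart. The 5 genes outside the chaperones whose log2 intensity followed Hspa2 most closely over the 8 arrays were Lifr (r = 0.985), Htr5b (0.968), Cd59b (0.958), Cenpb (0.958) and Ppp2r5a (0.957). Each had both domesticus arrays below the other 6, a pattern of Hspa2 itself that choosing by correlation with it favours. The list comes from a ranking of 6529 genes over 8 arrays of 4 RNA samples, of which 41 had r above 0.9, and it is a description without a p. Among the chaperones the closest was Hspa1l (r = 0.788).

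Hspa1l and Hspa4l, an Hsp70 and an Hsp110 of germ cells, stayed closer together than Hspa2 did. Hspa1l, the spermatid Hsp70, read 11973.9 and 12003.2 in castaneus, 9405.7 and 10022.4 in domesticus, 9779.6 and 10885.7 in musculus, and 12862.5 and 11501 in ssp. Castaneus and ssp read above domesticus and musculus on every array, and the span was 1.25-fold (adjusted p = 0.745 by limma). Hspa4l, an Hsp110 of the testis, read 6666.3 and 6896.9 in castaneus, 5982.5 and 7728.1 in domesticus, 5934.3 and 5800.8 in musculus, and 5429.5 and 7081.1 in ssp, with overlapping groups and a 1.16-fold span (adjusted p = 0.922). Of the tested spermatid markers, 9 of 11 were lower in domesticus than in castaneus and 10 of 11 lower in domesticus than in ssp. The median log2 differences were 0.21 and -0.28 (castaneus minus domesticus and domesticus minus ssp). In musculus 10 of 11 were lower than in castaneus (castaneus minus musculus 0.29) and 1 of 11 was higher than in ssp (musculus minus ssp -0.27). None was called by limma and none had an unadjusted p under 0.05. The part of these markers in the Hspa1l values was not tested.

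The stress-inducible pair Hspa1a and Hspa1b read below the median of the chaperone probe sets, which was 767.7 to 931.5 on the 8 arrays. Hspa1b read 51.9 and 8.2 in domesticus, the latter under the floor, 119.9 and 109.7 in castaneus, 202.4 and 97.3 in musculus, and 114.3 and 56.8 in ssp. Hspa1a read 171.1 and 210.3 in domesticus, 263.2 and 217.3 in castaneus, 326.4 and 341.3 in musculus, and 239.9 and 435.6 in ssp. For both genes the 2 domesticus arrays lay below the other 6 and musculus had the highest mean. The replicates of Hspa1b differed by over 2-fold in domesticus, musculus and ssp, and neither gene passed limma (adjusted p = 0.305 for Hspa1b and 0.487 for Hspa1a). They are near-identical copies, so their probe sets may share transcripts, and the size of the Hspa1b span, 4.50-fold, rests in part on the floor.

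The constitutive Hsp70 proteins spanned little. Hspa8 of the cytosol, which uncoats clathrin vesicles, ranged over 1.42-fold between ssp and castaneus means, Hspa9 of mitochondria over 1.29-fold and Hspa5 (BiP) of the endoplasmic reticulum over 1.25-fold. Hspa5 was the only chaperone probe set with both castaneus arrays above the other 6, at 4165.5 and 4193.4 against 3143.9 to 3849.1. Hspa14, an Hsp70 of the ribosome, read 251.6 and 327.2 in musculus and 206.3 and 275.1 in domesticus, against 155.2 and 85.3 in castaneus and 118.4 and 69.8 in ssp. Musculus and domesticus thus lay above the other 2 groups on every array, without passing limma (3.16-fold span, adjusted p = 0.204).

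Hspa4, an Hsp110 partner of Hsp70 that is also among the germ cell genes fixed by name, has 5 probe sets, and they did not give the same picture. Probe set 96594_at spanned 3.35-fold, at 392.6 and 538.5 in domesticus, 128.4 and 146.9 in castaneus, 264.6 and 202.8 in musculus, and 101.9 and 330.1 in ssp. The 2 ssp arrays lay on either side of musculus. The other 4 spanned 1.32 to 1.91-fold, were highest in domesticus for 2 and in castaneus for 2, and none of the 5 passed limma. Hsph1, the heat-inducible Hsp110, read 445.7 and 438.7 in castaneus, below all other arrays at 517.3 to 689.1, a 1.36-fold span that did not pass (adjusted p = 0.708).

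Hsp90aa1, the inducible cytosolic Hsp90 that is abundant in germ cells, is reported by 2 tested probe sets that disagreed. Probe set 95282_at read 22046 and 37118.7 in castaneus, 17936.4 and 37243 in domesticus, 27930.3 and 29466.6 in musculus, and 30222.8 and 12310.1 in ssp. The replicates of castaneus, domesticus and ssp were further apart than any 2 group means, and the span was 1.49-fold (adjusted p = 0.881 by limma). Probe set 161869_i_at read 22.8 and 55.2 in castaneus, below all others, and 117.1 and 111.1 in ssp, above all others, with 91.9 and 110 in domesticus and 80.1 and 59.1 in musculus (3.22-fold span, adjusted p = 0.253). Hsp90b1, the Hsp90 of the endoplasmic reticulum, ranged over 1.52-fold, with musculus lowest at 5314.7 and 5289.3 and ssp replicate 1 at 5245.8.

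Hspd1 (Hsp60) and Hspe1 (Hsp10), the mitochondrial folding chamber and its lid, lie head to head and share their start region. Their means had different orders. Hspe1 was lowest in ssp, at 492.8 and 434.4, and read 671 and 785.4 in castaneus, 457.3 and 704.5 in domesticus, and 725.9 and 1040.5 in musculus. Hspd1 was highest in ssp and lowest in musculus by both of its probe sets. Probe set 93277_at read 645.8 and 942.7 in ssp, 618 and 366.3 in musculus, 670.5 and 707 in castaneus, and 604.2 and 723.7 in domesticus, so the ssp arrays overlapped with castaneus and domesticus. Probe set 161140_r_at read 69.8 and 43.3 in musculus, below the other 6, which were 80.2 and 145.4 in castaneus, 163 and 134.5 in domesticus, and 157.3 and 141 in ssp. None of the 3 passed limma (adjusted p = 0.433, 0.630 and 0.244).

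Among the small heat shock proteins, Hspb2 of muscle has 2 probe sets with opposite orders. Probe set 103214_at read 137 and 29.9 on the castaneus arrays, 118.7 and 70.5 on domesticus, 35.5 and 17.3 on musculus, and 41.2 and 38.2 on ssp, with musculus lowest. Probe set 103215_g_at had its highest mean in musculus, at 388.3 and 282, and read 115.5 and 448.4 in castaneus, 180.2 and 224.1 in domesticus, and 223.6 and 330.4 in ssp. Replicates of castaneus differed by over 2-fold in both, and neither passed limma (adjusted p = 0.504 and 0.872). Hspb11, a part of the cargo train inside cilia and flagella despite its name, ranged over 1033 to 1483 on the 8 arrays with overlapping groups.

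Of the J-domain proteins, those of germ cells had narrow spans by their brightest probe sets. Dnajb13, a part of the radial spokes of the sperm tail, read 10868.5 and 9308 in castaneus, 11070.6 and 8957.3 in domesticus, 10754.1 and 10172.2 in musculus, and 10613.7 and 8754.8 in ssp by probe set 100318_at, a span of 1.09-fold among group means (adjusted p = 0.989 by limma). Its other probe set, 162220_r_at, read 441.8 and 378.4 in ssp, above 150.1 and 198 in castaneus, 273.3 and 101.1 in domesticus, and 126 and 133.1 in musculus, and did not pass (adjusted p = 0.313). Dnajb3, a spermatid form, read 13166 and 15239.5 in castaneus, 10108.1 and 12507.6 in domesticus, 10458.4 and 11496.2 in musculus, and 11153.9 and 15165.9 in ssp by the brighter of its 2 probe sets. Each of the 2 spanned 1.29-fold, with the highest mean in castaneus for the brighter and in musculus for the other, and the groups overlapped in both. Dnajb8, a testis J-domain protein that holds back aggregates, spanned 1.17-fold, with overlapping groups. Dnaja1, a general partner of Hspa8, read 884 and 784.4 in castaneus, 748.4 and 674.8 in domesticus, 722 and 852 in musculus, and 762.5 and 746 in ssp, also a 1.17-fold span.

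Dnajc15, of the inner mitochondrial membrane, stood low in ssp. It read 849.5 and 963.9 in ssp, 2469.5 and 2296.3 in castaneus, 1535.2 and 2655.1 in domesticus, and 2246.9 and 2262.5 in musculus. Both ssp arrays lay below the other 6. The ssp mean was 2.63-fold below castaneus, 2.49-fold below musculus and 2.23-fold below domesticus (SE 0.32 log2), and none of the 3 passed limma (adjusted p = 0.178, 0.141 and 0.229). Its probe set carries the suffix _s, which in the manufacturer's naming marks probes that can match related transcripts.

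Of 8 tested probe sets for 5 J-domain genes of the endoplasmic reticulum, 4 had their highest mean in musculus (25.6% of all tested did) and none its lowest (26.5% of all tested did), and none was called. Of the other 4, Dnajc1 was highest in ssp, Dnajc10 in castaneus and 2 probe sets of Dnajc3 in domesticus. Dnajb9, which is made when unfolded protein builds up there, read 3704.8 and 3963.6 in musculus by probe set 96679_at, above 1739.1 to 2730.8 on the other 6 arrays (1.92-fold span, adjusted p = 0.254 by limma). Its second probe set was also highest in musculus, at 414.6 and 381.1, but ssp replicate 2 at 386.1 overlapped, and castaneus was lowest at 215.8 and 179.3. Dnajc3, an inhibitor of the kinases that halt translation under stress, read 929.2 and 1044 in musculus, 534.6 to 742.9 in castaneus and domesticus, and 373 and 467.6 in ssp by probe set 102414_i_at (2.36-fold span, adjusted p = 0.219), while its other 2 tested probe sets had domesticus highest. Dnajb11, a partner of Hspa5, read 872.1 and 944.2 in musculus and 950.6 and 434.3 in ssp. In mitochondria the J-domain protein Dnaja3 read 538.9 and 541.1 in musculus, below 780.7 to 995.7 elsewhere (adjusted p = 0.281).

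Leydig cell and macrophage transcripts moved with musculus on the same arrays. All 10 tested Leydig markers and all 7 tested macrophage markers were above the mean of the other groups in musculus, with median log2 differences of 0.96 and 1.0. The summed Leydig intensity was 19920 and 23860 in musculus against 6988 to 9564 on the other arrays, and that of the macrophage markers 3834 and 4563 against 1833 to 3001. By limma's F test 2 Leydig markers, Cyp17a1 and Star, were called and 6 had an unadjusted p under 0.05, and of the macrophage markers none was called and 3 had one. In pairs, Hsd3b1 of the Leydig markers was also called between musculus and domesticus (adjusted p = 0.0493) and between musculus and ssp (0.0419), and C1qc of the macrophage markers between castaneus and musculus (0.0344). Their part in the musculus values of Dnajb9, Dnajc3 and Dnaja3 was not tested.

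The chaperonin subunits had narrow ranges apart from 1 probe set. Of 12 probe sets for 8 Cct genes, none was called, and the median span was 1.38-fold. Cct7 spanned 1.07-fold, at 8231.6 to 10179.1 on the 8 arrays. Cct6b, the testis form of the zeta subunit, read 5760.1 and 6331.8 in castaneus, 6128.4 and 6619.5 in domesticus, 7250.8 and 8544.3 in musculus, and 7451.5 and 8148.9 in ssp, so that musculus and ssp lay above the other 2 groups on every array by up to 1.30-fold (adjusted p = 0.656 by limma). Cct6a, the general zeta subunit, read 164.1 and 208.5 in musculus by probe set 162279_f_at, below 642.8 and 874.6 in castaneus, 328.2 and 640.6 in domesticus, and 416.3 and 811.2 in ssp, a 4.05-fold span that did not pass (adjusted p = 0.209). Its other probe set, 160459_r_at, gave 145.1 and 81.3 in musculus, 123.6 and 171.6 in castaneus, 328 and 29.6 in domesticus, and 223.9 and 113.8 in ssp, with the 2 domesticus arrays at the extremes. The suffixes _f and _r of these identifiers mark probes that could match a related transcript or that missed a design criterion. Cct4 was also below the other 6 arrays in musculus, at 5374.3 and 5357.6 against 6096 to 8475.2, a 1.49-fold span.

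**Figure D2:**
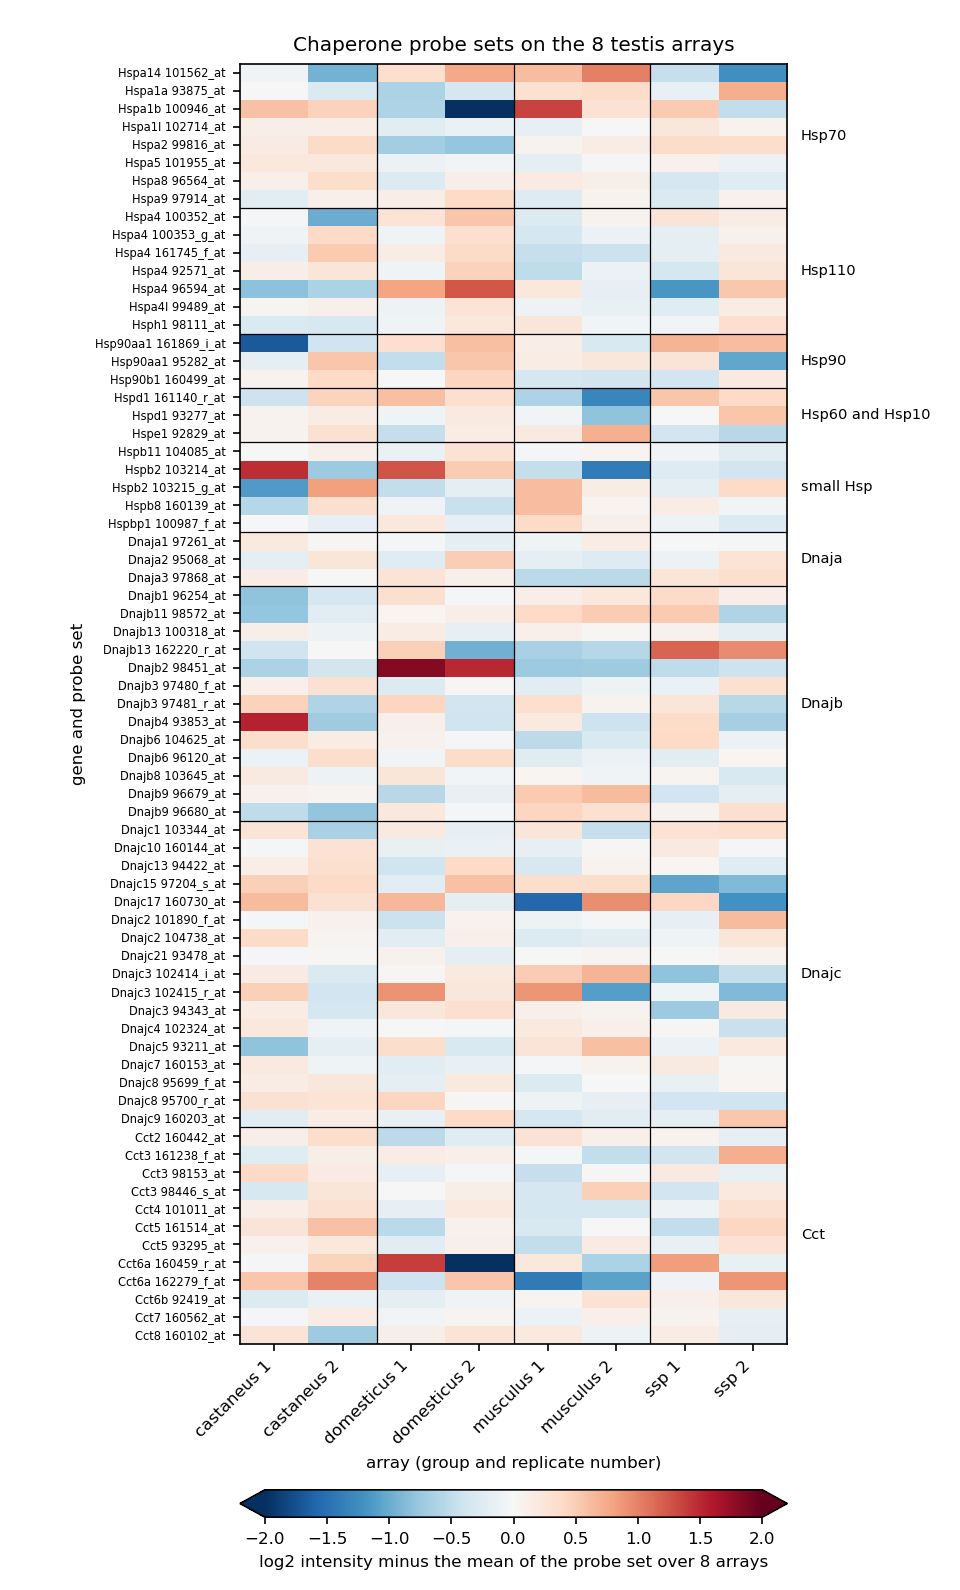
Log2 intensity of the 71 tested chaperone probe sets on each of the 8 arrays, minus the mean of the probe set over the 8 arrays (red above, blue below, colours end at 2 on either side), with families separated by lines. Dnajb2 is the row that is red on both domesticus arrays alone, while strong colours elsewhere, as for Hspa1b, Cct6a and Hspb2, often differ between the 2 arrays of a group.

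In pairs of groups, Dnajb2 was again the 1 chaperone probe set called. Of 71, limma called 1 between castaneus and domesticus (background 0.676% of all tested), 1 between domesticus and musculus (0.744%) and 1 between domesticus and ssp (0.687%). It called none between castaneus and musculus (background 0.947%), castaneus and ssp (0.349%) or musculus and ssp (0.980%), where 8 (11.3%, beside 13.5% of all tested), 6 (8.45%, beside 10.8%) and 9 (12.7%, beside 13.3%) had an unadjusted p under 0.05. The median absolute log2 difference of the chaperone probe sets lay between 0.22, for domesticus and ssp, and 0.35, for castaneus and musculus, and that of all tested between 0.36 and 0.39. The signed medians were small: 0.04 for castaneus minus domesticus, 0.09 for castaneus minus musculus, 0.10 for castaneus minus ssp, 0.04 for domesticus minus musculus, -0.01 for domesticus minus ssp (0.09 with median centring and 0.02 with quantile normalization) and -0.05 for musculus minus ssp (0.05 with median centring). Each group enters 3 of these pairs, so they are not independent of each other.

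**Figure D3:**
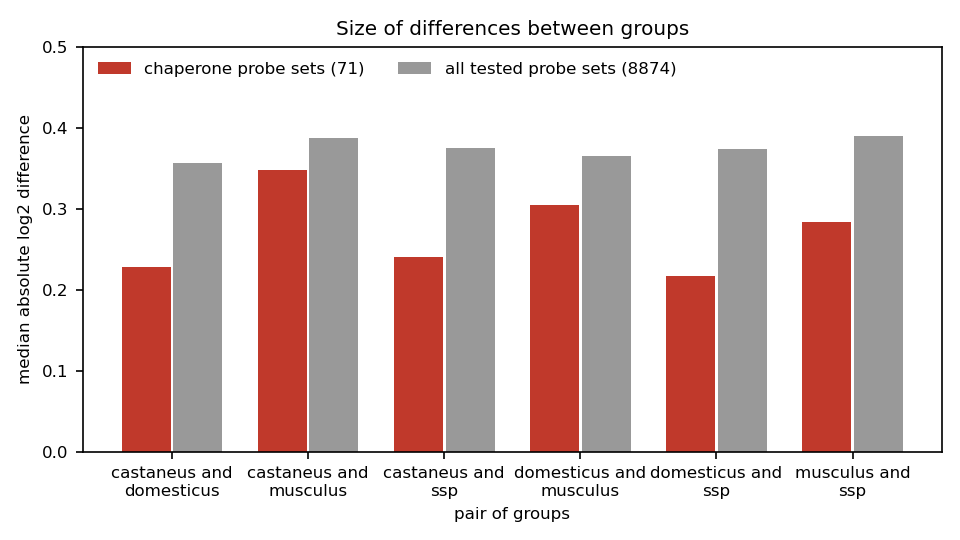
Bars give the median absolute log2 difference between the 2 group means for each of the 6 pairs, in red over the 71 tested chaperone probe sets and in grey over all 8874 tested; the axis starts at 0 and no error is drawn since probe sets are not replicates. Red bars run from 0.22 to 0.35 and grey bars from 0.36 to 0.39.

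Chaperone probe sets spanned less between groups than the whole array did, and most of them were bright. The median span of their group means was 0.57 on the log2 scale, or 1.48-fold, beside 0.81, or 1.75-fold, for all tested, and 14 of 71 (19.7%) spanned at least 1, beside 38.7%. Their median replicate SD was 0.29 on the log2 scale, beside 0.40. With the tested probe sets divided at mean intensities of 167.9 and 538.9 into 3 classes of equal size, 49 of the 71 fell in the brightest, where the median span was 0.43 for chaperones and 0.53 for all. In the middle class (13 chaperone probe sets) it was 0.82 beside 0.75, and in the dimmest (9) it was 1.44 beside 1.33. Within a class of like intensity the medians thus lay nearer each other than over the whole array, and no test was made of these differences.

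**Figure D4:**
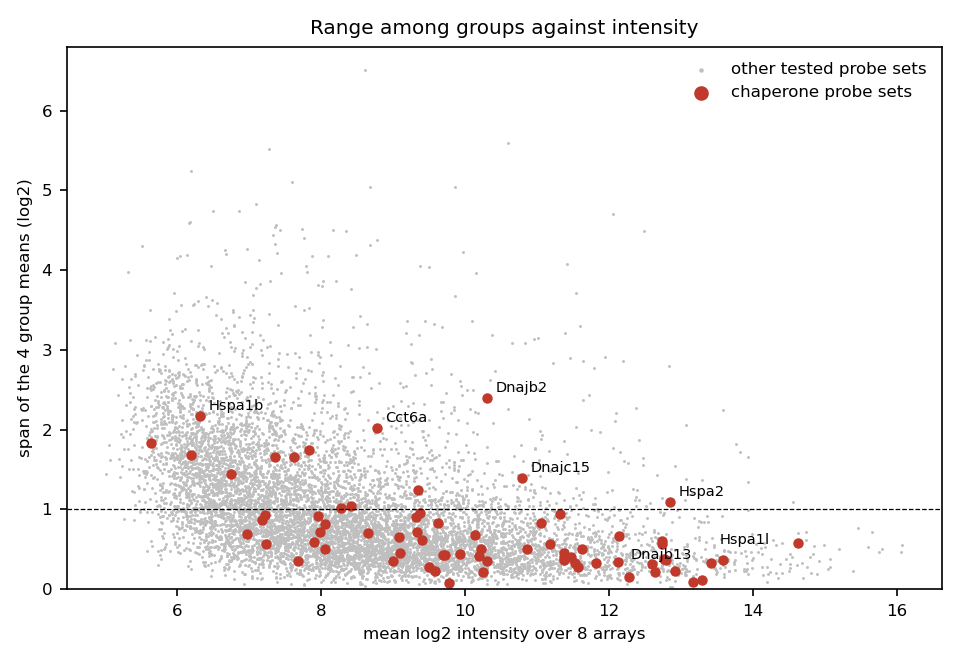
Span of the 4 group means on the log2 scale against mean log2 intensity over the 8 arrays, 1 point per tested probe set, chaperones in red and all others in grey, with a dashed line at the span of 1 needed for a call. The cloud narrows to the right, most red points lie under the line, and Dnajb2 stands at 2.40 and Hspa2 at 1.09.

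By group, the members whose 2 arrays lay wholly beyond the other 6 were spread over all 4 groups, with shares above and below those of all tested. There were 5 above (7.04%, background 6.13%) and 5 below (7.04%, background 5.52%) in domesticus, 2 above (2.82%, background 6.37%) and 7 below (9.86%, background 6.68%) in musculus, 1 above (1.41%, background 5.74%) and 4 below (5.63%, background 5.44%) in castaneus, and 3 above and 3 below (4.23% each, backgrounds 6.42% and 5.17%) in ssp. Those above in domesticus were Dnajb2, Hspa9, Dnajc3 and 2 probe sets of Hspa4, and those below were Hspa2, Hspa1a, Hspa1b, Cct2 and Dnajc7. The 4 below in castaneus include Dnajb1, the main heat-inducible partner of Hsp70, at 1219 and 1670 against 2058 to 2767 (1.78-fold span, adjusted p = 0.372 by limma), with Hsph1, Dnajb9 and Hsp90aa1, each by 1 probe set. Of 14 genes with several tested probe sets, 4 had the same highest group in all of them, 3 the same lowest group and 8 neither.

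Other chaperone genes, taken from lists by role, gave no call by limma's F test. Of 13 tested heat-inducible genes, 10 were above the mean of the other groups in musculus (median log2 difference 0.23) and 9 in castaneus (0.15). Of these 13, 1 had an unadjusted p under 0.05, and the median span was 1.64-fold. Of 12 immediate early genes, which respond to tissue handling among other things, 11 were tested. Of these, 10 were above in musculus (median 0.39) and 7 in castaneus (0.06), none was called and 2 had an unadjusted p under 0.05. Their part in the musculus values was not tested. Over all 6581 tested genes, 50.9% were above in musculus, with a median of 0.01, and 52.15% in castaneus, with a median of 0.02. Of 13 tested chaperones of the endoplasmic reticulum 3 had an unadjusted p under 0.05, of 8 mitochondrial ones 2, and of 13 chaperonin and prefoldin subunits 1, with median spans of 1.52, 1.71 and 1.31-fold beside 1.70-fold over all tested genes. The lists share members with each other and with the probe sets above.

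Among these, Pdia4, a disulfide isomerase of the endoplasmic reticulum, read 86.7 and 137.1 in ssp, 231.9 to 298.8 in castaneus and domesticus, and 421.2 and 448.7 in musculus, in 3 tiers without overlap (F test adjusted p = 0.0761 by limma, and 0.0436 for musculus against ssp, which was the 1 call in a pair on these chaperone lists). Pdia4 and the genes that follow were picked after their values were seen. Of 21 tested co-chaperones and regulators outside the symbol rule, none was called and 3 had an unadjusted p under 0.05. Ppid, a cyclophilin that works with Hsp90, read 536.9 and 593.1 in ssp and 243 to 292.8 on the other 6 arrays (adjusted p = 0.127). Unc45a, which helps Hsp90 fold myosin, read 44.3 and 58.7 in ssp and 89.1 to 275.1 elsewhere (adjusted p = 0.145). Hsbp1, which binds heat shock factor, read 1532 and 1753 in domesticus and 655.5 to 1065 elsewhere (adjusted p = 0.270). Hsf2, a heat shock factor of the testis, ranged from 270.7 in ssp to 458.6 in musculus (adjusted p = 0.735).

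The arrays themselves were alike in scale. The 2% trimmed mean was 495.6 to 496.7 on every array, array medians were 151.2 to 182.6, and 1 to 4 of the 77 chaperone probe sets lay at the floor on each. The tissue label held against its markers: all 11 spermatid markers on the array were tested, with a summed intensity of 262700 to 403800. Of the 11, Acrv1 of the acrosome had group means of 1446 to 1988 and Prm2 of sperm chromatin only 128.2 to 221.2, while the other 9, among them Prm1, had every group mean at 7404 or above. Markers of the epididymis summed to 91.1 to 396.2 over 3 tested genes, of which none was called and 1 had an unadjusted p under 0.05. Of 9 striated muscle markers, 4 were called, and the summed intensity of the 9 was 1706 to 2748, overlapping between groups. Of the 4 called, Atp2a1 was highest in ssp and Myh7 in musculus. Tnnc1 had means of 502.8 in ssp and 358.1 in castaneus, against 19.67 in domesticus and 18.7 in musculus. Ckmt2 had means of 1192 in domesticus, 1190 in castaneus, 543.4 in musculus and 36.09 in ssp. Of 6 spermatogonial markers none was called and 3 had an unadjusted p under 0.05, and of the Sertoli markers none and 1.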

How the data were processed

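The authors deposited a linear intensity for each of 12422 probe sets on each of 8 arrays, and the 8 columns were matched to samples by name. The sources used here do not say how probes were summarised or scaled. No further scaling was applied. A floor of 18.7, the 10th percentile over the 8 arrays, replaced lower values, and log2 was taken. Symbols came from the platform annotation, updated by Entrez number to RefSeq of GRCm38.p6, which gave the same 77 members. limma 3.58.1 in R 4.3.3 fitted 1 mean per group over all 8 arrays (4 residual and 2.34 prior degrees of freedom, prior SD 0.36), tested on simulated data. Means are geometric and SDs on the log2 scale. A group with 1 of 2 arrays at the floor has a mean that rests on the floor. Precision is limited by the 2 arrays per group.

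Named were all called members, the 10 tested members with the widest span, and 9 germ cell genes fixed by name. Lists were described by counts and medians, with 1 probe set a gene in lists (the tested one with the highest mean). Others were picked after their values were seen (those beyond the other 6 arrays, the steady ones and Hspb11). Of the 77 identifiers 21 carry a suffix such as _f, _r or _s. The members and lists were chosen with earlier results of these data known. Alternatives were the floor, the filter, scaling, the variance model, a replicate block, the symbol source and each array left out.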

Additional observations from a re-analysis of the deposited data

How the results depend on the processing

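Under other settings of limma the count of chaperone probe sets differing among the 4 groups, 1 as reported, was 0 without a filter (11 at an unadjusted p under 0.05), 0 with the replicate block (12) and 3 with a trended and robust prior (Dnajb2, Hspa2 and Dnajc15), and 0 in each fit that left out 1 array (5 to 10). It stayed at 1 with a pseudocount of 50, the filter at the 60th percentile, median centring, quantile normalization and members by updated symbol. With the trended and robust prior the pairs gave 2 for castaneus and domesticus, 1 for castaneus and musculus, 1 for castaneus and ssp, 2 for domesticus and ssp and 2 for musculus and ssp. The count for castaneus and domesticus and that for domesticus and ssp were each 0 without a filter, where 6 to 9 per pair had an unadjusted p under 0.05, and 0 with the replicate block (6 to 9), and domesticus and ssp had 2 with the filter at the 60th percentile, Dnajb2 and Hspa2. Leaving out 1 array gave 0 to 1 for domesticus and musculus, 1 only without either ssp array, and 0 to 0 for each other pair, with 3 to 10 per pair at an unadjusted p under 0.05. Dnajb2 kept its span of 2.40 without a filter (adjusted p = 0.0572) and with the block (0.0594). Hspa2 had an F adjusted p of 0.012 with the trended and robust prior and 0.0604 to 0.245 under the other settings with all 8 arrays; against ssp it was 0.0487 with the 60th percentile filter. The pairwise values of Dnajb2 and Hspa2 under these settings were added after the data were seen. The replicate numbers were not taken to pair the arrays: deviations of arrays with the same number correlated at 0.0263 to 0.171 across probe sets over the 6 pairs of groups, all above 0, so each array correlated better with its own number, a hint from the data and not the design. Over all tested probe sets the block left 42 calls of 156. Median centring moved the median difference of all tested probe sets between castaneus and ssp from -0.03 to 0.109 and that of the chaperones from 0.10 to 0.235; it also turned the chaperone median positive for domesticus minus ssp and musculus minus ssp. The number of arrays, 2 per group, limits every value, and a probe set near the floor has a span that rests on it.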

Other observations

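Replicate arrays of 1 group differed by over 2-fold at 5 chaperone probe sets in castaneus (7.04%, beside 17.2% of all tested), 4 in domesticus (5.63%, beside 15.7%), 3 in musculus (4.23%, beside 17.2%) and 7 in ssp (9.86%, beside 22.5%). Dnajb4, a J-domain partner of Hsp70, had the widest gap among bright members, at 6736.5 and 1423 on the 2 castaneus arrays. In each group its array numbered 1 read above its array numbered 2, with 2477.8 and 1756.5 in domesticus, 2651.9 and 1733 in musculus, and 2990.6 and 1469.7 in ssp. Such an order in all 4 groups was seen for 10 chaperone probe sets (14.1%, beside 12.7% of all tested), and the reverse for 14 (19.7%, beside 11.4%). Among the brightest class these shares were 14.3% and 24.5% for chaperones and 14.9% and 20.2% for all.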
